A study of Homo sapiens with 6 samples.

Results

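The genes described here are NRF2 and KEAP1, targets of NRF2, enzymes that supply NADPH, and the enzymes of the glutathione and thioredoxin systems. They are 36 genes chosen by symbol, of 17280 in the deposited table, and all 36 were found there. The RNA came from spheres of CAL-27, a human cell line established from a squamous carcinoma of the tongue. Spheres are cultures that grow unattached and favour stem-like cells. A group of 3 libraries (CON) is labelled as the normal control, and another 3 carry the title LF3, an inhibitor of the contact between beta-catenin and TCF4 in Wnt signalling, with 24 h of exposure in the series design. For the same 3 libraries the treatment label gives elesclomol-Cu, a copper ionophore with copper, so LF3 below stands for the title and not for a settled agent. The series asks how Wnt signalling bears on cuproptosis, cell death caused by copper. Both groups are of the same line, and the labels do not tell separate cultures from repeat libraries, so every p-value covers the spread between libraries, which may be technical.

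NRF2, encoded by NFE2L2, is a transcription factor that pairs with small MAF proteins on DNA stretches called antioxidant response elements. KEAP1 holds it in the cytosol and passes it to a CUL3 ubiquitin ligase for degradation, and oxidants or electrophiles release it by modifying cysteines of KEAP1. Its targets make glutathione, reduce thioredoxin, supply NADPH and detoxify quinones and carbonyls, and the pathway is often active in squamous carcinomas. NRF2 is controlled largely through protein stability, which RNA levels do not measure.

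The core of the antioxidant response element is TGACNNNGC, read on either strand as TGACNNNGC or GCNNNGTCA. RefSeq promoter windows of GRCh38.p14, from 250 bases before to 50 bases after a transcript start, were found for 28 of the 36 members. The core was present in windows of 9 of these 28 genes (32.1%), and in 16.1% of all genes with a window and 19.4% of tested genes with one. Counted by window, 10 of 34 windows of members (29.4%) and 13.3% of all 35116 windows held it. The stretches of 70 bases around a match are shown for the 8 members with a match lying wholly upstream of the start, because these are the members whose proximal promoter carries the letters of the element. Each is printed 5′ to 3′ on the strand of the gene, with capitals marking the match.
GCLM, chr1:93909431-93909500, minus strand, match at -34 to -26: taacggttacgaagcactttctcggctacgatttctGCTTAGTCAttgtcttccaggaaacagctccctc
KEAP1, chr19:10502786-10502855, minus strand, matches at -54 to -46 and -31 to -23: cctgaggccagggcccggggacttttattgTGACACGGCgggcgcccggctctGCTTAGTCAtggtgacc
ME1, chr6:83431149-83431218, minus strand, match at -137 to -129: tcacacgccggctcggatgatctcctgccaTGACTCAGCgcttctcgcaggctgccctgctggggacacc
TXNRD1, chr12:104215650-104215719, plus strand, match at -99 to -91: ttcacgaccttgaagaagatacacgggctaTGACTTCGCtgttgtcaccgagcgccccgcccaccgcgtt
TXNRD1, a start further along the gene, chr12:104286900-104286969, plus strand, match at -102 to -94: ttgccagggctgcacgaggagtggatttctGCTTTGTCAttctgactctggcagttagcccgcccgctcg
PGD, chr1:10398833-10398902, plus strand, match at -201 to -193: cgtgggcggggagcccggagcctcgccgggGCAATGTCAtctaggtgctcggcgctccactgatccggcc
CBR1, chr21:36069835-36069904, plus strand, match at -159 to -151: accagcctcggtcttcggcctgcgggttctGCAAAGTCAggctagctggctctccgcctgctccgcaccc
EPHX1, chr1:225825246-225825315, plus strand, match at -78 to -70: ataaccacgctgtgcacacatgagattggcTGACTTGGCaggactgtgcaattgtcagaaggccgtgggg
GPX2, chr14:64942828-64942897, minus strand, match at -122 to -114: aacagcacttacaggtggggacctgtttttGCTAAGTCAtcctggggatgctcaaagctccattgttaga
GCLM and the start-proximal match of KEAP1 carry the same 9 letters, GCTTAGTCA. In PIR the match lay after the transcript start and is not printed. A further match of ME1 (at 12 to 20) and of TXNRD1 (at -8 to 1) did not lie wholly upstream and is not marked either. A match is only a run of letters in the window, and binding was not measured.

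Values are TPM, in which reads are divided by gene length and each library is scaled to the same total. Depth is therefore unknown and counting intervals are not given. In bulk RNA, fewer cells of a type and less RNA per cell cannot be told apart. Differences between groups (LF3 minus CON) are log2 fold changes of TPM + 1 with the standard error from limma, and means carry the SD of n = 3 libraries. The 12195 genes that averaged 1 TPM or more were tested, and a gene was called at a Benjamini-Hochberg adjusted p under 0.05 over all of them. Over all tested genes the median log2 fold change was 0.24. Median-ratio rescaling, which divides a library by the median of its ratios to each gene's geometric mean, moved this to -0.01, so each direction below is also given relative to that shift where it matters. Of 9 epithelial markers, EPCAM, CDH1 and TP63 averaged 337, 142 and 59.5 TPM over the 6 libraries, whereas KRT14 averaged 0.612 TPM. Other epithelial markers differed between the groups in both directions, KRT5 at 101.7 ± 3.43 (CON) and 454 ± 6.66 TPM (LF3), SFN at 339 ± 18.2 and 608 ± 6.02 TPM, and KRT17 at 200 ± 8.66 and 58.8 ± 0.706 TPM. Of the fibroblast, blood and endothelial markers, PTPRC, COL3A1, DCN and KDR were at 0.04 TPM or less in every library. The 6 fibroblast markers summed to 14.8 to 15.8 TPM in CON and 6.8 to 7.7 TPM in LF3, the 5 blood markers analysed to 328.9 to 340.9 and 47.3 to 51.7 TPM (nearly all CD68) and the 4 endothelial markers to 0.4 to 0.6 and 6.2 to 7.3 TPM, with CDH5 at 0.11 TPM in each CON library and 5.70 to 6.93 TPM in LF3. Their part in the results below was not tested.

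Most of the pathway's RNA was more abundant in LF3. The members together made up 0.470 to 0.481% of the TPM in the CON libraries and 0.813 to 0.830% in the LF3 libraries. PRDX1 (means of 1118 TPM over CON and 1801 TPM over LF3) and TXN (571 and 1710 TPM) weighed most in these shares. Of 35 tested members, 25 were called higher, against 53.2% of all tested genes, and 6 lower against 32.3%, leaving 4 uncalled. After median-ratio rescaling 21 were higher and 9 lower, against 42.6 and 42.7% of all tested genes, and under quantile normalization 21 and 10, against 43.9 and 41.5%. Called either way were 31 of 35 members, which is close to the 85.5% of all tested genes. The 2 groups were fully apart in their values in 31 members, against 86.2% of all tested genes. The median log2 fold change of the tested members was 0.69, beside 0.24 over all tested genes, or 0.41 beside -0.01 after rescaling. Genes that rose at least 1 on the log2 scale numbered 11 of 35, against 20.8% of all tested genes, and 0 members fell by that much, against 11.1%. These counts depended on the scaling: 7 members rose and 2 fell (AKR1C3 and UGDH) by at least that much after median-ratio rescaling, against 14% and 15.3% of all tested genes, and 7 and 2 under quantile normalization, against 14.6% and 14.4%. Only ABCC2 was left untested, at a mean of 0.432 TPM over the 6 libraries. AKR1B10, the next lowest at 1.55 TPM, passed the filter only through its LF3 libraries. It is counted among the 25 called higher, the 11, and the 4 higher quinone, carbonyl and epoxide enzymes below.

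**Figure D1:**
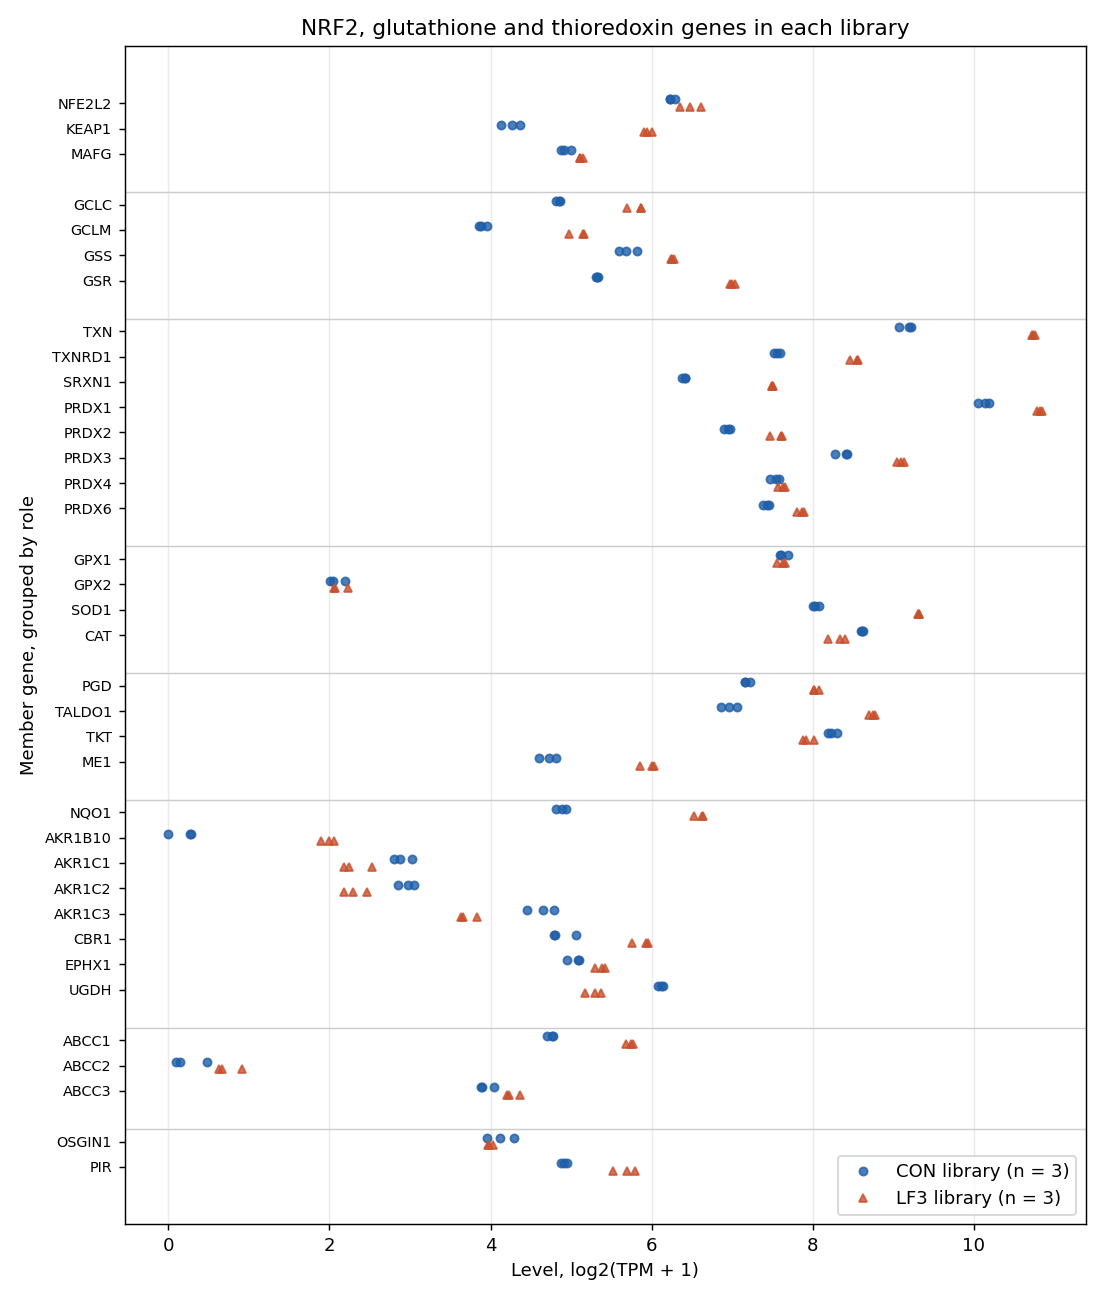
Level of each of the 36 members, as log2(TPM + 1) on the horizontal axis, in the 3 CON libraries (circles) and the 3 LF3 libraries (triangles), with genes grouped by role. Libraries of a group lie close together, and PRDX1 and TXN are the most abundant members in both groups.

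**Figure D2:**
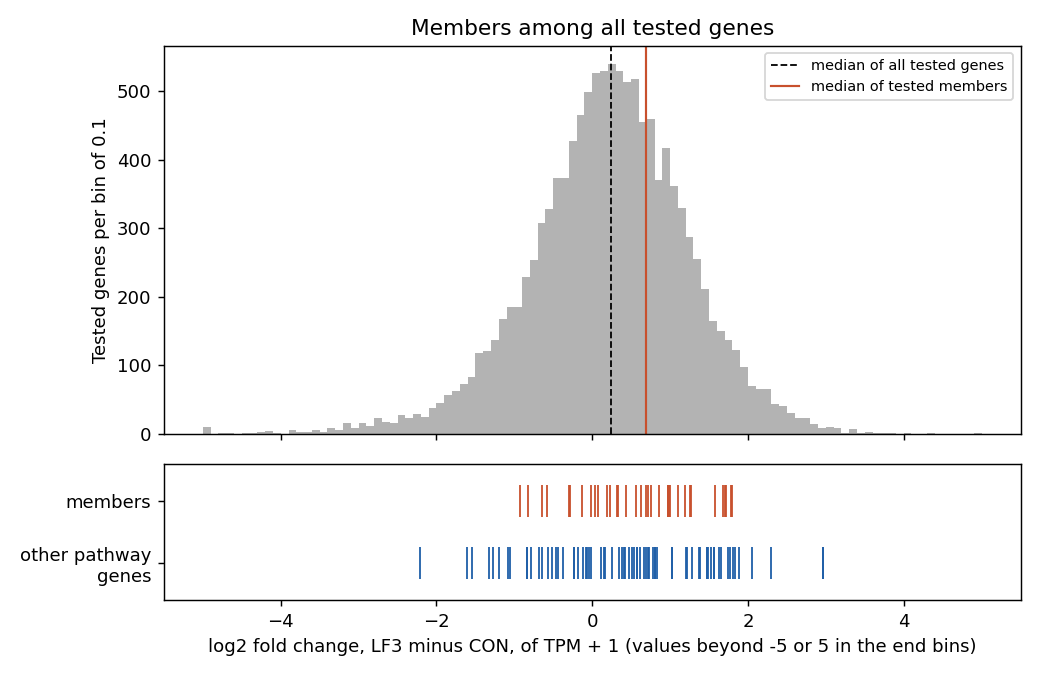
Number of tested genes per bin of log2 fold change (LF3 minus CON), with the median of all 12195 tested genes at 0.24 (dashed) and of the 35 tested members at 0.69 (solid). Below it, each tick is 1 gene of the members or of the other pathway genes, and the members lie between -0.93 and 1.80.

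Among the regulators, the RNA of the inhibitor rose far more than that of NRF2 itself. KEAP1 stood at 16.6, 18.2 and 19.5 TPM in the CON libraries and at 60.7, 59.0 and 63.2 TPM in the LF3 libraries. The groups lay well apart, with a 3.37-fold ratio of means and a log2 fold change of 1.70 ± 0.063 (limma adjusted p = 7.82e-10), at percentile 93.6 of all tested genes. NFE2L2 was at 74.3, 77.3 and 73.9 TPM in CON and 96.8, 88.4 and 80.8 TPM in LF3. The groups did not overlap and the gene was called (0.23 ± 0.061, adjusted p = 0.00424), but its change stood at percentile 49.5 of all tested genes, and the value became -0.04 (adjusted p = 0.479) after median-ratio rescaling and -0.09 under quantile normalization. MAFG, a small MAF partner of NRF2, was at 28.3, 29.2 and 30.9 TPM in CON and 34.4, 33.5 and 33.5 TPM in LF3. Its log2 fold change of 0.19 ± 0.052 (adjusted p = 0.00473) likewise turned to -0.07 (adjusted p = 0.200) after median-ratio rescaling and was called lower, at -0.16 (adjusted p = 0.0104), under quantile normalization. The ratio of KEAP1 to NFE2L2 was 0.241 ± 0.0212 in CON and 0.692 ± 0.0800 in LF3, a comparison chosen after the values were seen and given with no test. Such a ratio of TPM within a library is unchanged when the library is divided by a constant, as in median-ratio rescaling. Quantile normalization can change it.

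All 4 genes that make or reduce glutathione, the main small thiol of the cell, were higher in LF3, under the deposited values and both rescalings. Over all tested genes, 53.2% were called higher as deposited, 42.6% after median-ratio rescaling and 43.9% under quantile normalization. GSR, the reductase that regenerates glutathione with NADPH, rose from 39.2, 38.8 and 38.9 TPM in CON to 130, 127 and 125 TPM in LF3. This was the largest change of the 4, at 1.68 ± 0.040 (adjusted p = 3.12e-11), with no overlap and little spread within either group. GCLC and GCLM encode the catalytic and the modifier subunit of glutamate-cysteine ligase, the rate-limiting enzyme of glutathione synthesis. GCLC stood at 27.2, 27.8 and 28.0 TPM in CON and 57.3, 57.5 and 50.8 TPM in LF3 (0.97 ± 0.057, adjusted p = 3.19e-08). GCLM, whose proximal promoter carries the match printed above, went from 13.8, 14.5 and 13.5 TPM to 34.6, 34.6 and 30.4 TPM (1.19 ± 0.066, adjusted p = 1.88e-08). The ratios of means were 1.99 and 2.38, and LF3 replicate 3 was the lowest LF3 library for each. The ratio of GCLM to GCLC was 0.506, 0.522 and 0.483 in CON and 0.603, 0.602 and 0.598 in LF3. These values did not overlap, and a two-sided exact permutation test of the ratio gave p = 0.1, the smallest that 3 against 3 allows. GSS, which adds glycine to complete glutathione, moved least, from 50.1, 47.2 and 55.4 TPM to 76.6, 75.0 and 74.5 TPM (0.56 ± 0.057, adjusted p = 3.44e-06). Rescaling reduced GSS to 0.29 (median-ratio) and 0.19 (quantile), and quantile normalization GCLC to 0.61.

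Of the thioredoxin and peroxiredoxin genes, 7 of 8 were called higher and 0 lower, against 53.2% and 32.3% of all tested genes. After either rescaling 7 were called higher and 1 lower, against 42.6% and 42.7% (median-ratio) or 43.9% and 41.5% (quantile) of all tested genes. TXN, the small dithiol protein thioredoxin, was at 536, 593 and 585 TPM in CON and 1709, 1732 and 1688 TPM in LF3, with means 2.99-fold apart (1.58 ± 0.039, adjusted p = 4.24e-11). TXNRD1, the cytosolic selenoenzyme that reduces it with NADPH, was at 187, 192 and 183 TPM in CON and 372, 376 and 352 TPM in LF3 (0.97 ± 0.037, adjusted p = 1.01e-09). Both lay clearly apart between groups, and the carrier rose more than its reductase. SRXN1, sulfiredoxin, which repairs overoxidized peroxiredoxins, was at 84.1, 81.8 and 84.2 TPM in CON and 179, 182 and 180.0 TPM in LF3 (1.10 ± 0.035, adjusted p = 2.67e-10). Its libraries within a group were nearly equal. In the GENCODE 29 transcript set, 84.7% of the 50-base stretches of its longest coding transcript also occur in a transcript of AL121758.1, so at this read length its value is uncertain.

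The peroxiredoxins among the members, which remove peroxides with electrons from thioredoxin or glutathione, rose by smaller amounts than thioredoxin. PRDX3, the mitochondrial member, was at 339.9, 342 and 309 TPM in CON and 559, 548 and 526 TPM in LF3 (0.72 ± 0.044, adjusted p = 4.29e-08). PRDX1, the most abundant of all members, stood at 1118 ± 50.5 TPM over CON and 1801 ± 41.4 TPM over LF3 (0.69 ± 0.036), PRDX2 at 121.8 ± 3.06 and 188.7 ± 10.5 TPM (0.63 ± 0.046) and PRDX6, which works with glutathione, at 171 ± 4.28 and 230.1 ± 6.64 TPM (0.43 ± 0.037). After median-ratio rescaling the changes of PRDX1, PRDX2, PRDX3 and PRDX6 were 0.41, 0.35, 0.45 and 0.15, and under quantile normalization 0.90, 0.34, 0.53 and 0.19, all still called. The 3 cytosolic members were thus ordered PRDX1, PRDX6, PRDX2 in level in both groups, each apart from the next. PRDX4, the member of the endoplasmic reticulum, was the exception, at 184.5 ± 7.29 TPM over CON and 195.6 ± 6.0 TPM over LF3 with overlapping groups (0.08 ± 0.041, adjusted p = 0.0780). Its direction depended on the scaling: median-ratio rescaling gave a called fall (-0.19, adjusted p = 0.00244), as did quantile normalization (-0.17), whereas it was called higher without CON replicate 3 (0.11, adjusted p = 0.0357). PRDX5, a peroxiredoxin outside the members, fell from 1257 ± 39.6 TPM over CON to 798 ± 30.4 TPM over LF3 (-0.65 ± 0.036, adjusted p = 2.02e-08). PRDX5 was also lower after rescaling (-0.93 median-ratio, -0.6 quantile). Transcripts of other genes hold 28.6% of the 50-base stretches of PRDX1, mainly those of MMACHC, and 26.0% of those of PRDX2.

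The enzymes that act directly on superoxide and hydrogen peroxide did not move together. SOD1, the copper-zinc superoxide dismutase, rose from 261, 256 and 269.9 TPM in CON to 638, 632 and 636 TPM in LF3 (1.27 ± 0.032, adjusted p = 4.51e-11). CAT, catalase, fell from 386, 395 and 391 TPM to 336, 324 and 292 TPM (-0.30 ± 0.048, adjusted p = 0.000133), and by more after rescaling (-0.57 median-ratio, -0.49 quantile). The order of these 2 genes was therefore opposite in the groups, since the ratio of SOD1 to CAT was 0.671 ± 0.0220 in CON and 2.01 ± 0.149 in LF3, a pair chosen after the values were seen. GPX1, the general cytosolic glutathione peroxidase, was at 194, 192 and 205 TPM in CON and 197, 188 and 201 TPM in LF3. These values overlapped and the gene was not called (-0.01 ± 0.041, adjusted p = 0.785), although both rescalings called it lower (median-ratio -0.28, adjusted p = 0.000244, and quantile -0.26). Of its 50-base stretches 21.5% are shared, mostly with the pseudogene GPX1P1. GPX2, an epithelial glutathione peroxidase and known NRF2 target, was low in every library, at 3.12, 3.56 and 3.03 TPM in CON and 3.71, 3.18 and 3.17 TPM in LF3 (0.04 ± 0.095, adjusted p = 0.707). It is the 1 gene with a printed promoter match that was not called.

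Of the members in the pentose phosphate pathway and malic enzyme, which together supply NADPH to both thiol systems, 3 of 4 rose and TKT fell. The shares called over all tested genes were 53.2% higher and 32.3% lower. TALDO1, transaldolase of the non-oxidative pentose phosphate branch, was at 124, 115 and 133 TPM in CON and 435, 427 and 416 TPM in LF3. This 3.44-fold ratio of means (1.78 ± 0.050, adjusted p = 1.07e-10) stood at percentile 94.5 of all tested genes. TKT, transketolase, the other enzyme of that branch among the members, fell from 298, 291 and 314 TPM to 259, 242 and 235 TPM (-0.29 ± 0.044, adjusted p = 8.65e-05), and by more after rescaling (-0.57 median-ratio, -0.51 quantile). The ratio of TALDO1 to TKT, chosen after the values were seen, was 0.416, 0.395 and 0.423 in CON and 1.68, 1.77 and 1.77 in LF3, so the more abundant of the 2 differed between the groups. PGD, which makes NADPH in the oxidative branch, was at 148, 142 and 142 TPM in CON and 269.9, 257 and 257 TPM in LF3 (0.86 ± 0.037, adjusted p = 2.69e-09). ME1, cytosolic malic enzyme, was at 23.2, 27.0 and 25.4 TPM in CON and 63.1, 64.5 and 56.9 TPM in LF3 (1.26 ± 0.067, adjusted p = 1.46e-08). Neither gene overlapped between groups, and both carry a match in the windows printed above.

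**Figure D3:**
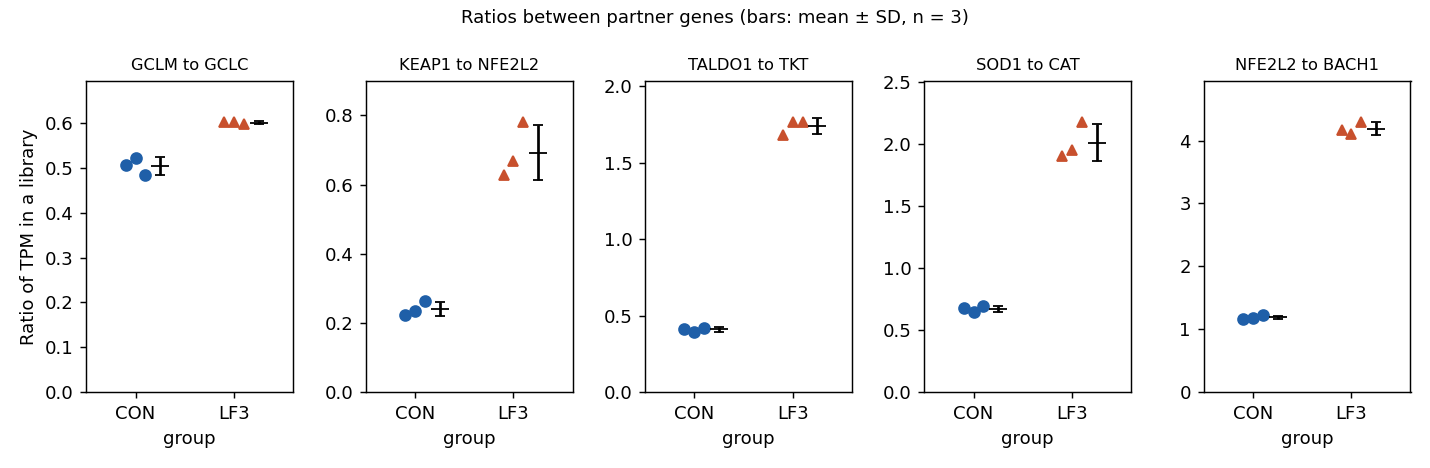
Ratio of TPM of 2 genes within each library, with CON as circles and LF3 as triangles, and the mean ± SD (n = 3) beside each group. SOD1 to CAT and TALDO1 to TKT lie under 1 in every CON library and over 1 in every LF3 library, while GCLM to GCLC moves from 0.503 to 0.601.

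Of the quinone, carbonyl and epoxide enzymes, 4 of 8 were higher and 4 lower, against 53.2% and 32.3% of all tested genes. After median-ratio rescaling 3 were higher and 4 lower, against 42.6% and 42.7%. NQO1, the quinone reductase most used as a readout of NRF2, was at 29.7, 27.1 and 28.5 TPM in CON and 98.7, 98.1 and 90.8 TPM in LF3 (1.72 ± 0.052, adjusted p = 1.88e-10), with 18.1% of its 50-base stretches shared with other genes. AKR1B10, an aldo-keto reductase and NRF2 target, was at 0.20, 0 and 0.22 TPM in CON and 2.73, 2.98 and 3.17 TPM in LF3 (1.80 ± 0.12). With CON this near 0 the size depends on the pseudocount, being 2.45 with 0.5 and 3.85 with 0.1 in place of 1. It was listed at or near 0 in every CON library and was low in LF3, and 17.7% of its 50-base stretches occur in other genes. CBR1, a carbonyl reductase, was at 26.9, 26.5 and 32.3 TPM in CON and 53.1, 61.0 and 60.2 TPM in LF3 (1.0 ± 0.080, adjusted p = 4.39e-07), with 22.1% of its 50-base stretches shared and a change of 0.64 under quantile normalization. EPHX1, microsomal epoxide hydrolase, stood at 32.1 ± 1.90 TPM over CON and 40.2 ± 1.83 TPM over LF3 (0.32 ± 0.058, adjusted p = 0.000374), and its call was lost after median-ratio rescaling (0.05, adjusted p = 0.433) and quantile normalization (-0.04, adjusted p = 0.513).

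The AKR1C genes, which reduce steroids and carbonyls and are counted among the most NRF2-responsive genes of human cells, were lower in LF3. AKR1C3 fell from 24.2, 26.7 and 20.9 TPM in CON to 13.2, 11.4 and 11.6 TPM in LF3 (-0.93 ± 0.091, adjusted p = 2.44e-06), the largest fall among the members. AKR1C1 stood at 6.48 ± 0.571 TPM over CON and 4.02 ± 0.668 TPM over LF3 (-0.58 ± 0.11, adjusted p = 0.000391). AKR1C2 was at 6.80 ± 0.539 and 3.98 ± 0.50 TPM (-0.65 ± 0.096, adjusted p = 7.59e-05). No group overlapped for any of the 3. They are not separate readings: AKR1C1 holds 50.8% of the 50-base stretches of AKR1C2, so how reads were divided between that pair is uncertain, while 12.1% of those of AKR1C3 are shared with other genes. UGDH, which makes UDP-glucuronate for conjugation, fell from 68.1 ± 1.32 TPM over CON to 38.0 ± 2.68 TPM over LF3 (-0.83 ± 0.055, adjusted p = 9.27e-08). These 4 genes fell under the deposited values and under both rescalings.

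Among the exporters of glutathione conjugates and the remaining targets, ABCC1, ABCC3 and PIR were called higher, OSGIN1 was not called and ABCC2 was not tested. ABCC1, a pump for such conjugates at the plasma membrane, rose from 25.01, 26.4 and 26.2 TPM in CON to 53.3, 52.7 and 50.1 TPM in LF3 (0.98 ± 0.049, adjusted p = 8.66e-09), or by 0.63 under quantile normalization. ABCC3, a related pump, was at 13.8, 13.8 and 15.5 TPM in CON and 19.6, 17.8 and 17.5 TPM in LF3. It was called (0.33 ± 0.071, adjusted p = 0.00119), but not after median-ratio rescaling (0.07, adjusted p = 0.324) or quantile normalization (0.04, adjusted p = 0.592). ABCC2 was barely present, at 0.11, 0.39 and 0.07 TPM in CON and 0.88, 0.59 and 0.55 TPM in LF3, and was not tested. PIR, the iron-binding protein pirin, rose from 29.9, 29.1 and 28.2 TPM to 51.0, 54.3 and 44.8 TPM (0.76 ± 0.068, adjusted p = 1.14e-06), or by 0.49 (median-ratio) and 0.40 (quantile) after rescaling. OSGIN1, an oxidative-stress-induced growth inhibitor, was at 14.5, 16.4 and 18.6 TPM in CON and 14.7, 14.8 and 15.3 TPM in LF3. The groups overlapped and it was not called (-0.13 ± 0.083, adjusted p = 0.168). Both rescalings called OSGIN1 lower (median-ratio -0.39, quantile -0.43), as did leaving out CON replicate 1 (-0.21, adjusted p = 0.0262).

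**Figure D4:**
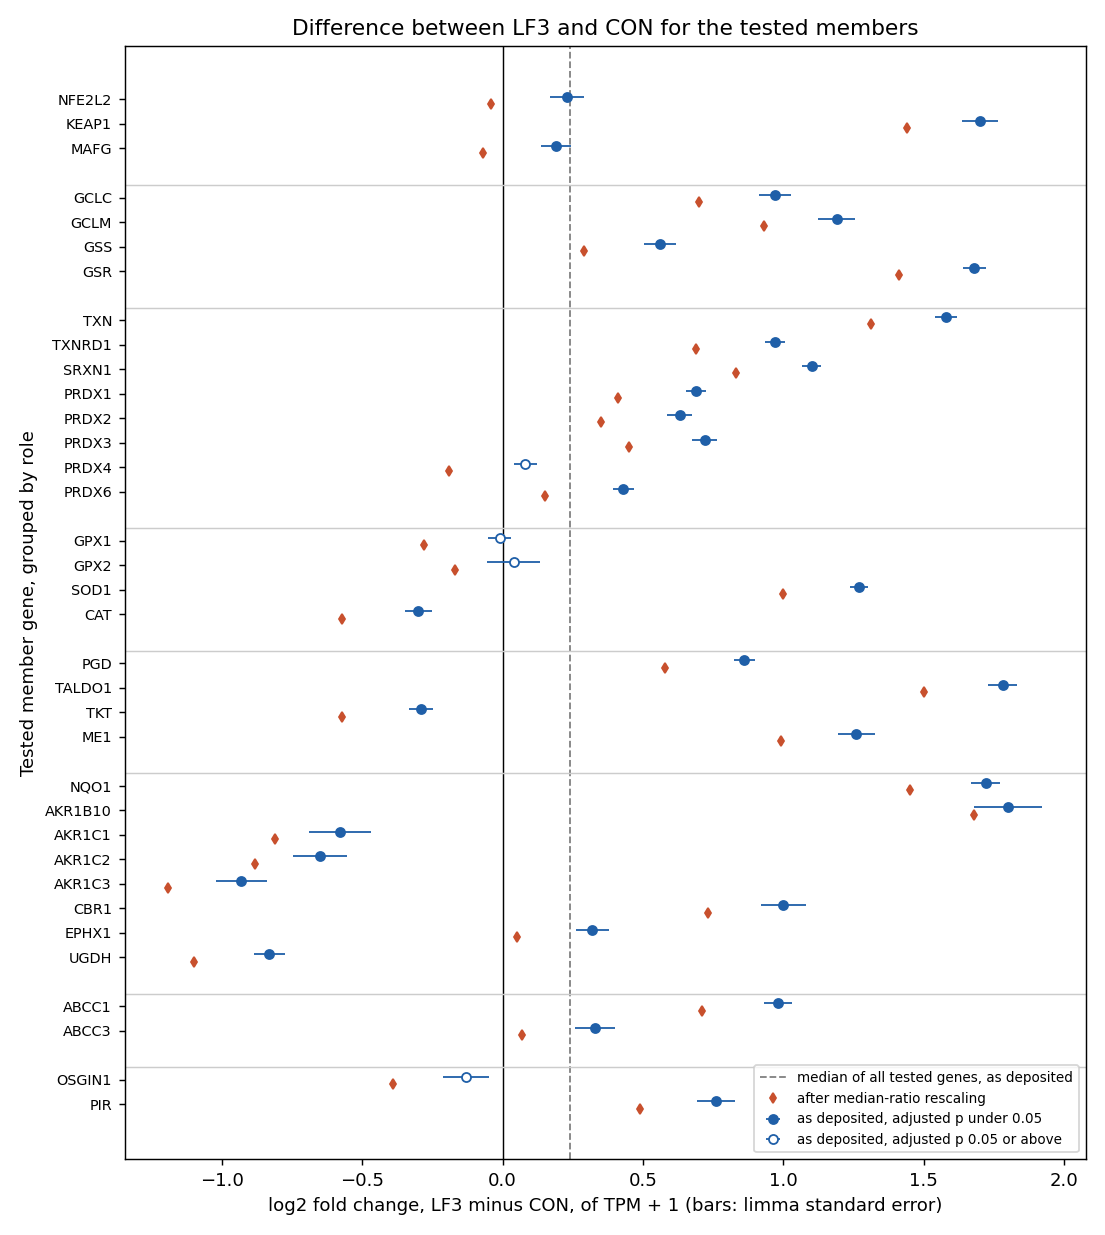
Log2 fold change (LF3 minus CON) of the 35 tested members as deposited (circles, bars ± limma standard error, filled where the adjusted p is under 0.05) and after median-ratio rescaling (diamonds), with the median of all tested genes at 0.24 dashed. Rescaling shifts the members down, and NFE2L2, MAFG, PRDX4 and GPX2 change sign.

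Members with and without the core element in a promoter window were set side by side as a description. Of the 9 with a match, 8 were called higher, 0 lower and 1 was not called, and EPHX1 among the 8 lost its call after rescaling. Of the 19 with a window and no match, 18 were tested, with 9 higher, 6 lower and 3 not called. Of all tested genes 53.2% were higher and 32.3% lower, which is close to the shares of the members without a match. The 8 members without a window (ABCC1, ABCC3, AKR1B10, GSR, GSS, PRDX1, PRDX6 and SOD1) were each called higher too, ABCC3 only before rescaling. Calls were not counted over all tested genes with a match, so a link between the letters and the calls was not tested. All 6 members that fell thus belong to the windows without the letters TGACNNNGC, which says nothing of sites farther away.

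Other genes of the same pathway, 80 in 5 lists, were read from the same fit. Of them 77 were analysed and 72 tested, with 44 higher and 21 lower, against 53.2% and 32.3% of all tested genes, or 40 and 26 after median-ratio rescaling, against 42.6% and 42.7%. Their median log2 fold change was 0.52 beside 0.24 for all tested genes. The same percentages are the background for the count of each list below, and no list was tested as a set. In NRF2 regulation, 4 of 8 tested genes were higher and 4 lower, the same counts as after median-ratio rescaling. BACH1, the repressor that competes with NRF2 for antioxidant response elements, fell from 63.6, 65.5 and 60.6 TPM in CON to 23.2, 21.5 and 18.8 TPM in LF3 (-1.54 ± 0.072, adjusted p = 4.91e-09). The ratio of NFE2L2 to BACH1, chosen after the values were seen, was 1.19 ± 0.0282 in CON and 4.19 ± 0.0970 in LF3. The other small MAF genes went the opposite way to the deposited value of MAFG: MAFF fell from 76.2 ± 2.44 to 32.7 ± 1.6 TPM (-1.20 ± 0.051) and MAFK from 134.5 ± 9.17 to 63.8 ± 0.557 TPM (-1.06 ± 0.050). SQSTM1, the autophagy receptor p62 that can draw KEAP1 away from NRF2, rose from 424.5 ± 11 to 756 ± 15.7 TPM (0.83 ± 0.032). NFE2L3, a relative of NRF2, rose from 21.8 ± 1.36 to 66.7 ± 2.63 TPM (1.57 ± 0.058).

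Among other NRF2 targets, 11 of 18 tested genes were higher and 3 lower, against 53.2% and 32.3% of all tested genes. After median-ratio rescaling 10 were higher and 6 lower, against 42.6% and 42.7%. ALDH3A1, among the 11, passed the filter only through its LF3 libraries (means of 0.77 TPM over CON and 5.3 TPM over LF3). SLC7A11, the cystine importer that supplies glutathione synthesis, rose from 1.24, 1.45 and 1.12 TPM in CON to 9.84, 8.90 and 6.72 TPM in LF3 (2.05 ± 0.13, adjusted p = 4.80e-08). Its LF3 libraries spread widely, yet each lay above every CON library. FTH1, ferritin heavy chain, rose from 6248 ± 196 to 21900 ± 569 TPM (1.81 ± 0.030). FTL, the light chain, fell from 5246 ± 179 to 4027 ± 69.1 TPM (-0.38 ± 0.030), a value that became 0.04 without a call (adjusted p = 0.207) under quantile normalization. TRIM16, a ubiquitin ligase, rose from 7.82 ± 0.382 to 31.7 ± 1.66 TPM (1.89 ± 0.065) and ABHD4, a lipid hydrolase, fell from 40.3 ± 0.482 to 26.9 ± 1.41 TPM (-0.57 ± 0.053, or -0.91 under quantile normalization). HMOX1, heme oxygenase, for which BACH1 is a known repressor, was at 22.2, 25.8 and 25.7 TPM in CON and 24.3, 21.2 and 22.0 TPM in LF3 with overlapping groups (-0.12 ± 0.074, adjusted p = 0.155). It was called lower after both rescalings (-0.38 and -0.44) and without CON replicate 1 (-0.19, adjusted p = 0.0364).

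Of the other glutathione enzymes, 11 of 20 tested genes were higher, close to the 53.2% of all tested genes, and 9 lower, against 32.3%. Median-ratio rescaling gave 10 and 9, against 42.6% and 42.7%, and quantile normalization 11 and 9, against 43.9% and 41.5%. After rescaling the share of lower genes was thus near that of all tested genes. GSTM2 and GSTA4, among the 9, passed the filter only through CON, at means of 3.09 and 1.87 TPM there and 0.723 and 0.603 TPM in LF3. CHAC2, which degrades glutathione, rose from 3.26 ± 0.272 to 32.1 ± 2.07 TPM (2.96 ± 0.076), and GGCT, a cyclotransferase of gamma-glutamyl peptides, from 85.6 ± 2.61 to 294 ± 11 TPM (1.77 ± 0.041). CHAC1, in the same list, went the other way, from 7.20 ± 0.834 to 2.28 ± 0.574 TPM (-1.33 ± 0.13). GSTM3, a glutathione transferase, fell from 11.8 ± 0.910 to 3.18 ± 0.152 TPM (-1.61 ± 0.081), and GLRX, cytosolic glutaredoxin, from 171.5 ± 6.09 to 80.4 ± 3.43 TPM (-1.08 ± 0.045). In the list of other thioredoxin and peroxide enzymes, 9 of 14 were higher and 4 lower, against 53.2% and 32.3% of all tested genes. Median-ratio rescaling gave 8 and 4, against 42.6% and 42.7%, and quantile normalization 7 and 4, against 43.9% and 41.5%. SOD2, the mitochondrial manganese superoxide dismutase, rose from 188, 184 and 168 TPM in CON to 1493, 1458 and 1300 TPM in LF3 (2.97 ± 0.056). Each LF3 library lay far above every CON library. MSRB1, a methionine sulfoxide reductase, rose from 13.4 ± 1.01 to 69.3 ± 0.933 TPM (2.30 ± 0.059), whereas SESN3 and SESN2, sestrins, fell by 2.21 and 0.79 on the log2 scale.

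Of the other NADPH enzymes, 9 of 12 tested genes were higher and 1 lower, against 53.2% and 32.3% of all tested genes. After median-ratio rescaling 8 were higher and 3 lower, against 42.6% and 42.7%. ME3, among the 9, passed the filter only through its LF3 libraries (means of 0.477 TPM over CON and 1.52 TPM over LF3). PGLS, the lactonase of the oxidative pentose phosphate branch, was at 79.3 ± 4.27 and 77.3 ± 1.16 TPM and was not called (-0.04 ± 0.047, adjusted p = 0.486). Both rescalings called PGLS lower (median-ratio -0.31, quantile -0.38), and it was named after its value was seen. RPE, an epimerase of the non-oxidative branch, rose from 18.8 ± 1.28 to 57.4 ± 4.37 TPM (1.56 ± 0.069). The 1 gene that fell was IDH2, mitochondrial isocitrate dehydrogenase, from 121.5 ± 6.29 to 67.3 ± 2.66 TPM (-0.84 ± 0.050).

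**Figure D5:**
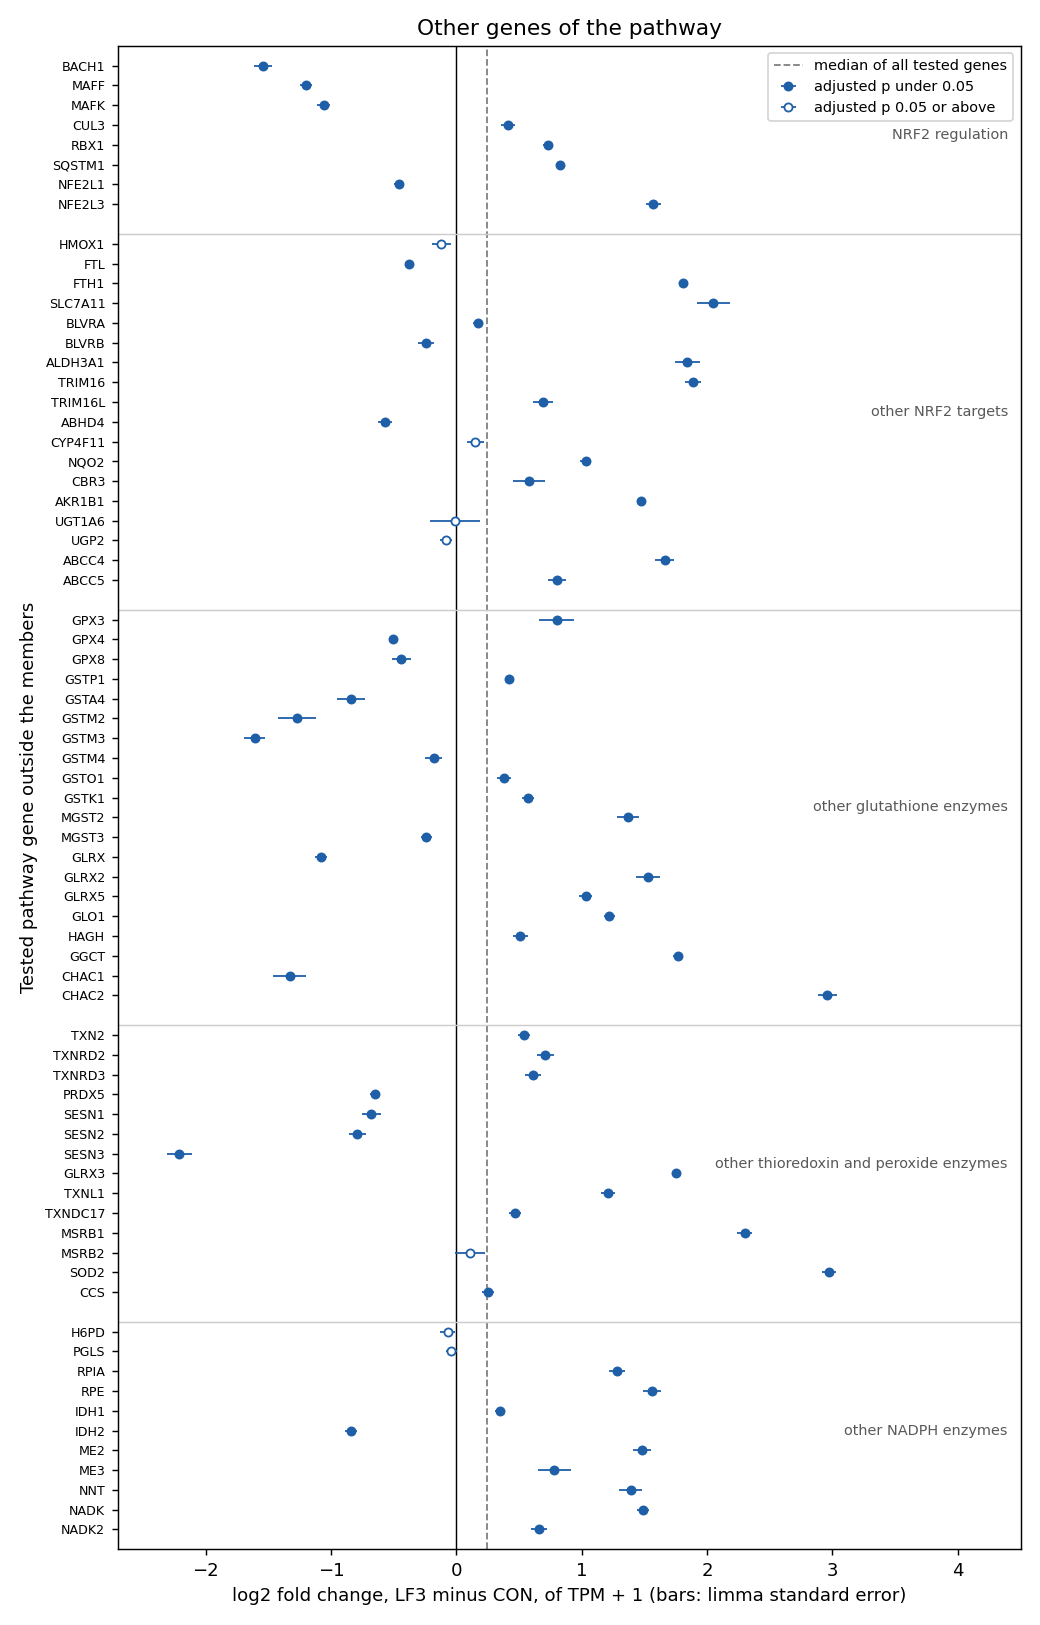
Log2 fold change (LF3 minus CON, ± limma standard error) of the tested pathway genes outside the members, by list, with 1 gene not shown, filled where the adjusted p is under 0.05, with the median of all tested genes dashed. SOD2 at 2.97 and CHAC2 at 2.96 lie farthest to the right and SESN3 at -2.21 farthest to the left.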

How the data were processed

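The authors deposited TPM per gene for 6 libraries, with equal column sums, and all 6 columns of values were used. The submitters' processing notes list HISAT, Bowtie2 and GRCm38.p6, without roles or tool versions. That build is of the mouse and the gene identifiers are human, so the reference used for alignment is unknown here, and the coordinates printed are those of RefSeq (GRCh38.p14). Reads were single-end and 50 bases long, per the labels' protocols. The treatment of reads that fit more than 1 gene was not found in the labels.

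On log2(TPM + 1), where changes of low genes come out too small, LF3 and CON were compared with limma 3.58.1 (R 4.3.3), two-sided, with a mean-variance trend. Between libraries of a group 0.320 to 0.541% of tested genes had equal values, so no column is a copy of another of its group. Each library counted as 1 sample, although repeat libraries of 1 culture would also differ in their values. The members and lists were chosen with earlier results of these data known. Library values are given for up to 4 members per role with the largest change. Each further list adds up to 2 called genes per direction at a mean of at least 5 TPM, plus HMOX1, SLC7A11, BACH1, SQSTM1 and FTH1. MAFK, PRDX5, CHAC1, PGLS, ALDH3A1, ME3, GSTM2, GSTA4 and 4 of the ratios were added after their values were seen. A gene that the rule also names is not reported here. Stretches of 50 bases of a member's longest coding transcript were searched, on either strand, in GENCODE 29 transcripts of other genes.

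The fit was tested on simulated data. Alternatives changed the pseudocount (0.1 or 0.5), the filter (none, or 5 TPM), the scaling (median-ratio, quantile), limma's variance model (no trend, robust) and the design (replicate block), or dropped 1 library. Figures were drawn with matplotlib 3.10.9.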

Additional observations from a re-analysis of the deposited data

How the results depend on the processing

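Of 523 values of single members under the alternatives, 503 kept their direction and their side of the threshold, 7 lost a call, 8 gained one and 11 turned sign, of which 4 are among the lost and 2 among the gained calls. For the other pathway genes 1031 of 1068 kept both, 12 lost a call, 13 gained one and 15 turned sign, 3 of them among the lost calls. The filter, the variance model and the replicate block leave a log2 fold change as it was. These alternatives could therefore move only the adjusted p and could not turn a sign, which raises the totals that kept both. Under quantile normalization 10 members were called lower in place of 6. When a library was left out, 25 to 26 members were higher and 6 to 7 lower, 43 to 45 and 20 to 22 of the other pathway genes, and 6236 to 6550 and 3749 to 3937 of all genes. The ratio difference of GCLM to GCLC was 0.0978, and 0.0873 to 0.107 without a library. After median-ratio rescaling the sign turned for NFE2L2 (-0.039), MAFG (-0.072), PRDX4 (-0.19), GPX2 (-0.17), BLVRA (-0.11), CYP4F11 (-0.097), MSRB2 (-0.13) and CCS (-0.021). Under quantile normalization it turned for NFE2L2 (-0.088), MAFG (-0.16), PRDX4 (-0.17), EPHX1 (-0.043), FTL (0.043), BLVRA (-0.15), CYP4F11 (-0.14), UGT1A6 (0.18), MSRB2 (-0.12) and CCS (-0.11). Leaving out a library gave uncalled values of both signs for GPX1 (-0.032 to 0.018), GPX2 (-0.019 to 0.093), UGT1A6 (-0.21 to 0.18), MSRB2 (-0.015 to 0.23) and PGLS (-0.0685 to 0.0060). The cause of each turn was not tested.

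Whether the replicate numbers pair the libraries is not settled. Deviations from the group means correlated at 0.048, 0.11 and 0.16 for equal numbers and at -0.17 to 0.074 for unequal ones. CON replicate 1 correlated best with LF3 replicate 2 (0.074), and CON replicates 2 and 3 with the LF3 library of equal number. With the replicate block, 25 members were higher and 6 lower, 44 and 21 of the other pathway genes and 6536 and 3986 of all genes. TPM keeps no depth, which limits what can be said of the genes near 1 TPM.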
